A study of Mus musculus with 2 samples.

Results

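Plasmacytoid dendritic cells (pDCs) made up 100 of the 13969 cell barcodes in 2 droplet single-cell RNA-seq libraries of sorted mouse liver cells. A barcode was a member if it had at least 5 unique molecular identifiers (UMIs, each counting 1 captured transcript) of Siglech, Ccr9 and Cox6a2 together, with at least 2 of these 3 genes detected, and if the liver endothelial transcripts Stab1, Stab2, Clec4g and Dnase1l3 together made up under 0.3% of its UMIs. Barcodes with fewer than 500 UMIs, fewer than 300 genes or a mitochondrial share of 20% or more were left out beforehand, and 12830 barcodes remained. The members were 36 of 5168 passing barcodes in the control library (0.697%, exact binomial 95% interval 0.488 to 0.963%) and 64 of 7662 in the cirrhosis library (0.835%, 0.644 to 1.07%). These intervals overlap, and they cover counting error only. The order of these shares reversed under stricter limits, given with the processing checks.

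The study profiled liver endothelial cells of control mice and of mice made cirrhotic by inhaled carbon tetrachloride (CCl4) over 12 weeks. What the control mice inhaled is not given in the sources used here. Both groups were C57BL/6, 16 weeks old, and carried Cdh5-Cre with the mTmG +/+ reporter, in which Cre removes tdTomato and turns on eGFP, with Cre under the endothelial promoter of Cdh5. Each library came from live GFP-positive non-parenchymal cells pooled from 3 mice, so each group was 1 library and no difference between them has a replicate check.

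pDCs are bone marrow-derived leukocytes that sense viral and self nucleic acids through endosomal Toll-like receptors and can release large amounts of type I interferon. Their identity depends on the E-box-binding transcription factor TCF4 (E2-2), which acts with IRF8, RUNX2, SPIB and BCL11A. Mouse pDCs carry the inhibitory receptor Siglec-H and the chemokine receptor CCR9, have a plasma cell-like secretory apparatus, and reach the liver from the blood.

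The upstream sequences of 3 marker genes are shown because all 3 marked the members, and because TCF4 is an E-box factor. Each run is the 250 bases before the gene's RefSeq start on the plus strand of GRCm38.p6, 5′ to 3′, and capitals mark the E-box letters CANNTG, which read the same on both strands. Siglech lies at chr7:55767934-55768183, Ccr9 at chr9:123766961-123767210 and Klk1 at chr7:44225110-44225359. RefSeq's table of starts held no entry for Cox6a2.
Siglech: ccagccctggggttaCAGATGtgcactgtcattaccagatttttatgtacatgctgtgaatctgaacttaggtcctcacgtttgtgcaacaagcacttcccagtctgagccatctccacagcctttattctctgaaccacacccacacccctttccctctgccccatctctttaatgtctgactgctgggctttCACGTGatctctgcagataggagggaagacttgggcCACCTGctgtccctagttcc
Ccr9: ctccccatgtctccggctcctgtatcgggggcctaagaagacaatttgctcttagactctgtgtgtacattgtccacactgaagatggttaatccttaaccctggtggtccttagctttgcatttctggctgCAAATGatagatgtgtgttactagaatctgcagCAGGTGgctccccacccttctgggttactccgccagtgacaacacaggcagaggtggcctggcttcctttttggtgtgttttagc
Klk1: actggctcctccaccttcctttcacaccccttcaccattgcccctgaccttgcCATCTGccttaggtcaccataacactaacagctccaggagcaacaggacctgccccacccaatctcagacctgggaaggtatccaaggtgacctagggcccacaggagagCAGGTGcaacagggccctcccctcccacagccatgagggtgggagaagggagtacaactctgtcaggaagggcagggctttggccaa
The Siglech run holds 3 such matches, and the Ccr9 and Klk1 runs hold 2 each. Each run holds 1 match to CAGGTG or its reverse complement CACCTG, both of which are also CANNTG. Of 32851 RefSeq windows of the same length, 66.2% held CANNTG, with a median of 1 match, and 17.2% held CAGGTG or CACCTG. A match describes these letters only.

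The members were deeply sampled. A control member had a lowest, median and highest count of 2197, 12479.5 and 39062 UMIs, and a cirrhosis member had 5794, 13982.5 and 43021, against medians of 7050.5 and 9084 UMIs over all passing barcodes. Median gene counts per member were 3710 and 3973, and median mitochondrial shares were 7.54% and 7.45%. Summed over members, the libraries gave 503443 and 1192987 UMIs, and levels below are CPM, a gene's UMIs per 1000000 UMIs of these sums. A log2 ratio is cirrhosis over control, and its exact 95% interval covers counting error only, not differences between mice or libraries. The libraries shared 17 barcode sequences, of which 0 were members.

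RNA of other cell types differed between the members of the libraries. A member was over the other-cell limit when marker transcripts of B, T, NK, Kupffer, neutrophil, hepatocyte or sinusoidal endothelial cells exceeded 0.5% of its UMIs for any of these 7 lists. In control, 4 of 36 members were over it and in cirrhosis 26 of 64, of which 13 exceeded it for endothelial, 9 for hepatocyte, 6 for Kupffer and 1 for neutrophil transcripts, some for more than 1 list. The part of this RNA in the values below was not tested beyond leaving those members out. The 26 had a median of 25463.5 UMIs, and the 38 other cirrhosis members had 12027. B, T and NK transcripts put 0 members over the limit, but it could hardly be reached by B or T cell RNA. Barcodes chosen by B cell markers themselves held 3550 and 7204 CPM of the B list in control and cirrhosis. Those chosen by T cell markers held 7304.5 and 5080 CPM of the T list. A limit of 0.5% lies within the range of these sums, so a member mixed with such RNA could stay under it. For the genes and lists the results turn on, the ratio is therefore also given without the members over the limit, which leaves 32 and 38 members. Simulated doublets placed 1 control and 6 cirrhosis members among the highest-scoring barcodes of their library, and none was removed.

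**Figure D1:**
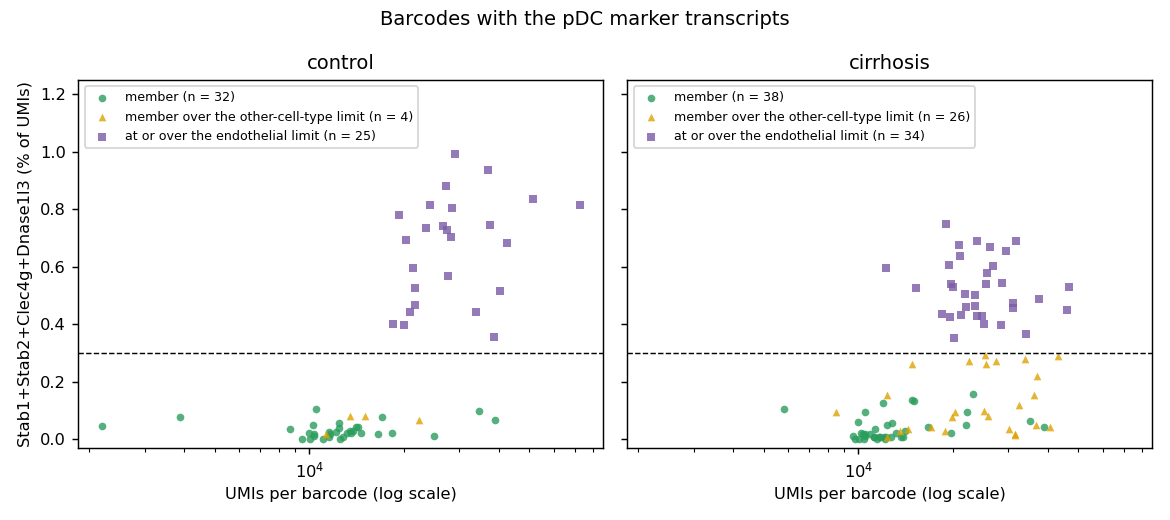
UMIs per barcode (log scale) against the percentage of UMIs from Stab1, Stab2, Clec4g and Dnase1l3, for every barcode with the pDC marker transcripts, in the control (left) and cirrhosis (right) library; circles are members, triangles are members over the other-cell limit, squares are barcodes at or over the endothelial limit (dashed line). The squares lie apart from the members in control, while cirrhosis members over the other-cell limit reach up to 0.292%, just under the line.

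The fewest marker UMIs in a member were 10 in control and 6 in cirrhosis, against medians of 51.5 and 60, and 1 and 2 further barcodes had 3 or 4. The highest endothelial share inside the rule was 0.105% in control and 0.292% in cirrhosis, and the lowest outside it was 0.356% and 0.352%. Another 25 of 61 marker-bearing control barcodes (41%, 28.6 to 54.3%) and 34 of 98 cirrhosis barcodes (34.7%, 25.4 to 45%) were at or over the endothelial limit. Those had medians of 27514 and 23794 UMIs and held both pDC and endothelial transcripts, with Siglech at 1080.0 and 1224 CPM and the endothelial scavenger receptor Stab2 at 1248 and 992 CPM. The plot of endothelial share by depth shows this second group.

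The 3 genes of the rule were high by construction and are given as a description. Siglech, encoding Siglec-H, was at 1857 CPM in control and 1642 CPM in cirrhosis, with a UMI in 36 of 36 and 63 of 64 members. Ccr9, a receptor for the gut and thymus chemokine CCL25, was at 806 and 842 CPM, with a UMI in every member of both libraries. Cox6a2, a cytochrome c oxidase subunit otherwise typical of striated muscle, was at 1243 and 809.7 CPM, in 35 and 62 members. Its exons overlap Itgad on the other strand.

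Klk1, a tissue kallikrein and the fourth pDC marker, was not used by the rule. It was at 830 CPM in control and 743 CPM in cirrhosis, a log2 ratio of -0.16 (-0.33 to 0.01), and at 879 CPM in each library without members over the limit. Members ranged from 0 to 3600 CPM with a median of 405 in control, and from 0 to 4128 CPM with a median of 669 in cirrhosis, so the groups overlapped throughout. B, T and Kupffer cell barcodes, chosen by analogous marker rules, had at most 1.37 CPM of Klk1. Its neighbour Klk1b27 was at 185 and 204 CPM, 23 control and 46 cirrhosis members held both genes, and 1 member held Klk1b27 alone. The kallikrein genes are near-identical, so reads may be split between them and the assignment is uncertain.

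The transcription factors that define pDCs were present in nearly all members. Tcf4 was at 2018 and 1574 CPM in control and cirrhosis, at 46.9 to 246 CPM in B, T and Kupffer cell barcodes, and at 940 and 864 CPM in barcodes with at least 1% endothelial UMIs. Irf8 was at 2918 and 2427 CPM, with a UMI in all 100 members, and at 118 and 138 CPM in those endothelial barcodes. Runx2, which directs pDC migration and identity, was at 626 and 434 CPM in members and at or under 31.0 CPM in the 3 other leukocyte sets. Spib was at 348 and 218 CPM and Bcl11a at 564 and 514 CPM, and these 3 genes were each under 1 CPM in the endothelial barcodes. Each of these 5 genes, none of which the rule used, had a UMI in at least 31 of 36 control and 61 of 64 cirrhosis members. The member with the fewest marker UMIs in each library carried few of these transcripts. In control it had 10 marker UMIs, against 18 in the next member, and it held 2 Siglech, 3 Irf8 and 13 Tcf4 UMIs among 18275. In cirrhosis it had 6, against 28 in the next member, and it held 1 Irf8 UMI and 0 UMIs of Siglech, Tcf4, Bst2 and Cd74 among 5794, with the T cell list at 0.173% of its UMIs. Every other member of both libraries held Siglech, Tcf4, Irf8 and Bst2. Ratios without these 2 members are given where they change a call.

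As a list, the identity genes had a median ratio close to 0. Of 19 measured genes on the transcription factor list (at least 10 UMIs over both sums), 9 were higher and 10 lower in cirrhosis. Over all 10202 measured genes, 57.4% were higher and 42.6% lower. The list's median log2 ratio was -0.08, against a median of 0.11 over all measured genes. Without members over the limit the list median was 0.10 and that of all 8406 measured genes was 0.04. Tcf4 went from a log2 ratio of -0.36 (-0.47 to -0.25) to -0.11, and Irf8 from -0.27 (-0.36 to -0.17) to 0.11. Id3, an inhibitor of E proteins, was at 276 CPM in control and 489 CPM in cirrhosis, a log2 ratio of 0.82 (0.55 to 1.10), and 0.61 without members over the limit. In control 1 member held 58 of its 139 UMIs, and without that member the ratio was 1.49. Among members under the limit 1 cirrhosis member held 42 of 198 UMIs, and without it the ratio was 0.37 (0.01 to 0.74). Over the alternative processing settings the Id3 ratio ran from -0.19 to 1.08, so its direction depended on the setting.

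Among surface molecules, Bst2, the tetherin recognised by the pDC antibody PDCA-1, was at 2964 CPM in control and 2293 CPM in cirrhosis. Ly6d was at 2669.6 and 2031 CPM, and at 2869 CPM in each library without members over the limit. Of 22 measured surface and inhibitory receptor genes, 6 were higher and 16 lower in cirrhosis, beside 57.4% and 42.6% of all measured genes. Their median was -0.34. Without members over the limit 8 of 21 were higher and 13 lower, beside 52.6% and 47.4%, with a median of -0.08. At least 2-fold higher were then 3 of them, beside 9.26%, and 2-fold lower 1, beside 4.7%. Over all members, 2 of the 22 were at least 2-fold higher, against 15.7% of all measured genes, and 1 at least 2-fold lower, against 3.68%. They were Cd8a and Cd8b1 in the first direction and Cd209d in the second, described below.

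**Figure D2:**
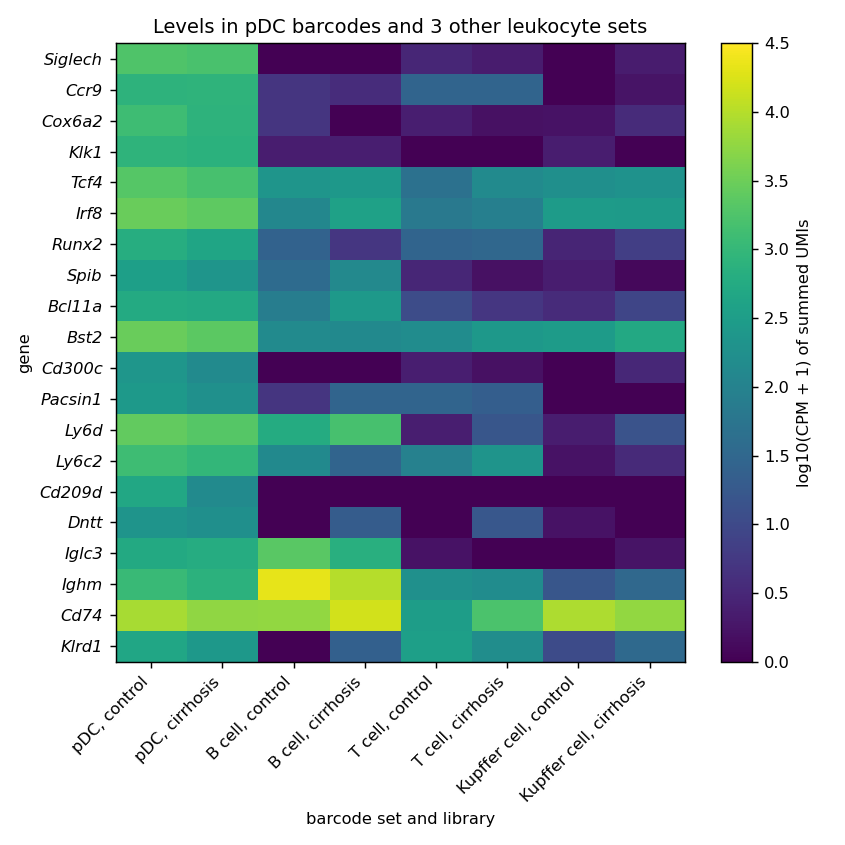
Level of 20 genes (rows) as log10(CPM + 1) of summed UMIs in pDC, B, T and Kupffer cell barcodes of each library (columns); the colour scale runs from 0 to 4.5. The genes of the rule and Klk1 are brightest in the pDC columns, while Ighm is brightest in B cells and Cd74 is high in pDCs, B cells and Kupffer cells.

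Genes with the highest pDC level over all other passing barcodes, taking the lower of the libraries, included the progestin and adipoQ receptor Paqr5 at 121-fold in control and 141-fold in cirrhosis, and Cd300c, an activating receptor, at 144-fold and 109-fold. Dntt, the terminal transferase of lymphoid progenitors, stood at 124-fold and 76.4-fold over the rest. It was at 209 and 173 CPM, with a UMI in 26 of 36 and 48 of 64 members, against 0 of 187 and 5 of 190 T cell barcodes and 1 of 199 and 0 of 353 Kupffer barcodes. Other genes on this list were Pacsin1, Smim5, Runx2, Ly6c2, Rnase6, Gm21762 and AC140186.1. The other passing barcodes included the 25 control and 34 cirrhosis barcodes with pDC markers at or over the endothelial limit. These folds therefore depend on pDC transcripts in those barcodes, and how far was not tested.

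Members also held lymphoid transcripts. Ighm, the IgM heavy chain constant gene, was at 1132 CPM in control and 768 CPM in cirrhosis, with a UMI in all 100 members. Iglc3, a lambda light chain constant gene, was at 530 and 619 CPM, in 30 of 36 and 62 of 64 members. Iglc3 had a UMI in 0.535% and 0% of T cell barcodes (median 6650 and 6021.5 UMIs) and in 0% and 0.850% of Kupffer barcodes (median 4759 and 5533 UMIs). Thinned to 2000 UMIs each, 58.8% of control and 67.6% of cirrhosis members held Iglc3. The B cell receptor gene Cd79a, in contrast, had 21 and 31 UMIs in 2 and 4 members. Klrd1, encoding CD94 of NK cells, was at 453 and 255 CPM, a log2 ratio of -0.83 (-1.08 to -0.58), and -0.45 without members over the limit, while Prf1 and Eomes had 0 UMIs.

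Genes of the nucleic acid sensing pathway were detected in both libraries. Tlr7, the endosomal receptor for single-stranded RNA, was at 93.4 CPM in control and 75.4 CPM in cirrhosis, a log2 ratio of -0.31 (-0.83 to 0.23), and 0.06 without members over the limit. Unc93b1, which carries it to endosomes, was at 679 and 559 CPM. Tlr9, the receptor for CpG DNA, had 0 UMIs in control and 5 in cirrhosis, so its level was at most 5.96 CPM in control at this depth. Slc15a4, a lysosomal transporter that Toll-like receptor signalling in pDCs needs, was at 131 and 75.4 CPM, a log2 ratio of -0.80 (-1.27 to -0.32), and -0.83 without members over the limit.

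Of 24 measured sensing genes, 13 were higher and 11 lower in cirrhosis, with a median of 0.04, beside 57.4% higher over all measured genes. At least 2-fold higher were 6 of them, beside 15.7%, and without members over the limit 1 of 20, beside 9.26%. One of the 6 was the endosomal protease Lgmn at 125 and 348 CPM, whose log2 ratio was 1.48 (1.09 to 1.88) and 0.81 without them. Another was the cytosolic RNA sensor Ddx58 with 4 and 42 UMIs, whose ratio was 2.15 (0.68 to 4.09) and 0.53 without them, and of whose control UMIs 3 were in 1 member. Irf5 was at 127 and 80.5 CPM, and its log2 ratio of -0.66 (-1.13 to -0.18) was -0.16 without them.

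No type I or type III interferon transcript was captured in members of either library. The 17 such genes on the list (the Ifna genes, Ifnb1, Ifnl2 and Ifnl3) had 0 UMIs, which allows at most 5.96 CPM of each in control and 2.51 CPM in cirrhosis. Irf7, the factor that drives their induction, was at 201 and 189 CPM, a log2 ratio of -0.08 (-0.43 to 0.27). The receptor subunits Ifnar1 and Ifnar2 were at 169 and 318 CPM in control and at 148 and 236 CPM in cirrhosis. Il12a had 9 and 2 UMIs.

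Interferon-stimulated genes were not uniformly different. Of 31 measured, 15 were higher and 16 lower in cirrhosis, with a median of -0.04, beside 57.4% higher and 42.6% lower over all measured genes. At least 2-fold higher were 10 of them, beside 15.7%. These included Ifitm3, a restriction factor of viral entry that endothelial cells also carry, at 232 and 645 CPM, with a log2 ratio of 1.47 (1.19 to 1.76) and 0.69 without members over the limit, where 1 control member held 41 of 90 UMIs and the ratio was 1.45 without it. Without the members over the limit 14 of 27 genes were higher, beside 52.6% of all measured genes, and 4 were at least 2-fold higher and 2 at least 2-fold lower, beside 9.26% and 4.7%. Isg15, a ubiquitin-like modifier, was at 57.6 and 107 CPM in 8 of 36 and 20 of 64 members, a log2 ratio of 0.90 (0.31 to 1.53), and 1.17 without them. In cirrhosis 1 member held 56 of its 128 UMIs, and without that member the ratio was 0.08 over all members and -0.58 without those over the limit. Ifi27l2a was at 423 and 648 CPM, a log2 ratio of 0.61 (0.39 to 0.84), and 0.75 without them.

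AP-1 and immediate-early genes were lower in the cirrhosis library. These genes encode transcription factors and feedback regulators that respond within minutes to stimulation and stress. All 20 measured genes of the list were lower, 16 of them at least 2-fold, with a median log2 ratio of -1.27, beside 42.6% lower and 3.68% at least 2-fold lower over all measured genes. Without members over the limit, again 20 were lower and 16 at least 2-fold, with a median of -1.71, beside 47.4% and 4.7%. Without the 2 members with the fewest marker UMIs, 20 were lower and 12 at least 2-fold, with a median of -1.09. With every member weighted equally, 19 were lower and Klf4 was at 0.15. The plot of single genes shows both sets of members. The list was compiled knowing that these genes differed between the libraries in other cells, so its direction is not independent evidence.

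Fos was at 1575 CPM in control and 268 CPM in cirrhosis. Members ranged from 0 to 7114 CPM with a median of 727 in control, and from 0 to 1230.3 CPM with a median of 158 in cirrhosis, so the groups overlapped with the highest values in control. The highest was in the control member with the fewest marker UMIs, and the next was 4404 CPM. The log2 ratio was -2.55 (-2.75 to -2.36), -2.76 without members over the limit and -2.36 without the 2 members with the fewest marker UMIs. Fos had a UMI in 34 of 36 and 50 of 64 members, and in 70.8% and 30.8% after thinning. Its partners Junb and Fosb were at 884 and 505 CPM in control and at 237 and 143 CPM in cirrhosis, with ratios of -1.90 (-2.12 to -1.68) and -1.82 (-2.11 to -1.54), or -1.97 and -2.48 without members over the limit, and -1.74 and -1.49 without the 2 members with the fewest marker UMIs. The mRNA decay factor Zfp36 was at 503 and 174 CPM, a ratio of -1.53 (-1.81 to -1.26). The ratios of Klf2 at -0.39, Klf4 at -0.08 and Ier5 at -0.62 were within 2-fold, and were -0.96, -0.85 and -0.36 without the members over the limit. Klf4 rested on 1 control member with 31 of its 88 UMIs, and without that member its ratio was 0.43.

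A few control members carried much of this signal. Summed over the list, control members ranged from 1973 to 41423 CPM with a median of 5000, and cirrhosis members from 837 to 10080 CPM with a median of 3377. The highest control value was again the member with the fewest marker UMIs, and the next was 24883.5 CPM. The cirrhosis member with the fewest was second highest, at 10010 CPM. The 3 members with the most of these UMIs held 48.4% of the list's total in control and 15.6% in cirrhosis. Over 10000 CPM were 7 of 36 control and 2 of 64 cirrhosis members. For Jun the summed level and the typical member went in opposite directions. Its sums were at 1112 and 449 CPM, with a log2 ratio of -1.31 (-1.48 to -1.14), whereas its member medians were 161 CPM in control and 292 CPM in cirrhosis. Egr1 had sums of 522 and 227 CPM and member medians of 0 and 75 CPM.

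The same list had medians of 0.16 in B cells, -0.67 in T cells and -1.69 in Kupffer cells, each from 1 library per group. The medians of all measured genes there were 0.92, 0.13 and 0.12. With 1 library per group, the handling of a library and the condition of its mice cannot be told apart.

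**Figure D3:**
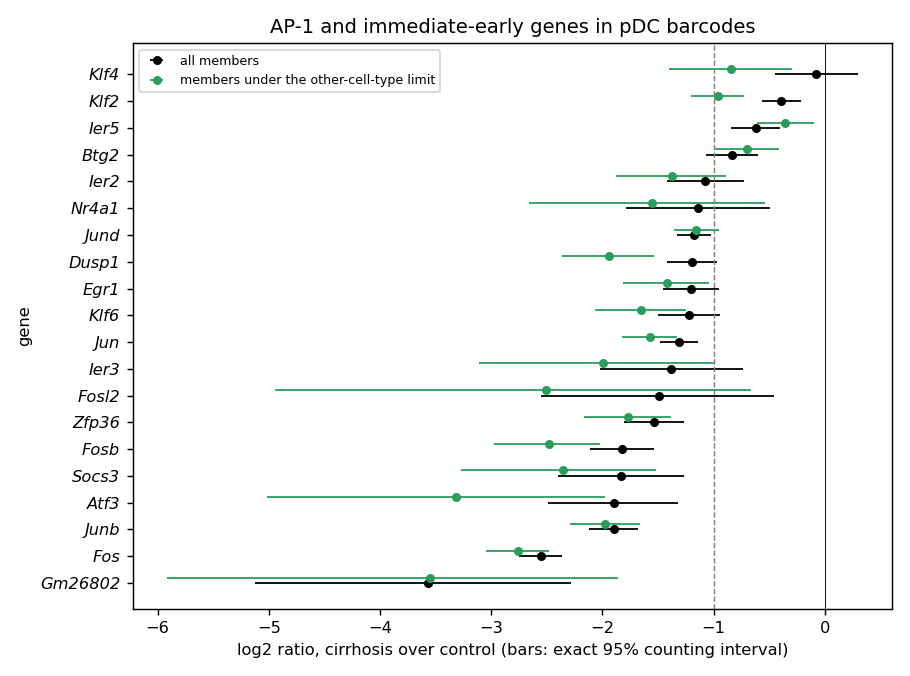
Log2 ratio of cirrhosis over control (x axis) for 20 AP-1 and immediate-early genes (y axis), from all members (black) and from members under the other-cell limit (green); bars are exact 95% counting intervals, and the dashed line is a 2-fold lower level. All 20 points of both sets lie under 0, Fos at -2.55 and -2.76, and the interval of Klf4 for all members reaches over 0. With every member weighted equally, which is not plotted, Klf4 was at 0.15.

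The secretory apparatus was slightly lower as a group. Of 34 measured genes of the endoplasmic reticulum (ER) translocon, glycosylation and folding machinery, 29 were lower in cirrhosis, beside 42.6% of all measured genes, and 0 differed by 2-fold, with a median of -0.27. Without members over the limit 33 were lower, with a median of -0.25, beside 47.4% of all measured genes. The translocon subunit Sec61b was at 1045 CPM in control and 602 CPM in cirrhosis, a log2 ratio of -0.80 (-0.96 to -0.63), and -0.54 without them. The signal peptidase subunit Spcs3 was at 139 and 72.9 CPM, a ratio of -0.93 (-1.40 to -0.46), and -0.94 without them. Xbp1, the factor behind secretory expansion, was at 346 and 286 CPM. The list medians were -0.83 in B cells, 0.01 in T cells and 0.16 in Kupffer cells.

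Of 16 measured unfolded protein response genes, 12 were lower, beside 42.6% of all measured genes, and 0 differed by 2-fold, beside 15.7% higher and 3.68% lower. The median was -0.28, and -0.30 without members over the limit. Hspa5, encoding the ER chaperone BiP, was at 691 and 393 CPM. Members had a median of 521 CPM in control and 384 CPM in cirrhosis, within ranges of 0 to 1686 and 0 to 1082 CPM that overlapped. The ratio was -0.81 (-1.02 to -0.61), and -0.84 without members over the limit. Its cochaperone Dnajb9 was at 133 and 68.7 CPM, a ratio of -0.95 (-1.44 to -0.47), and -0.94 without them. Cytosolic heat shock genes were lower in 7 of 9 cases, beside the same 42.6%, with a median of -0.53.

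Genes of antigen presentation on MHC class II were lower in most cases. Cd74, the invariant chain, was at 8130.0 CPM in control and 5656 CPM in cirrhosis, with overlapping members of median 7005 and 5655 CPM. Its log2 ratio was -0.52 (-0.58 to -0.47) with and without members over the limit. H2-Aa was at 2421 and 1833 CPM, a ratio of -0.40 (-0.50 to -0.30), and -0.53 without them. Of 13 measured genes of the list 11 were lower, beside 42.6% of all measured genes, with a median of -0.37. Without those members 9 of 12 were, beside 47.4%, with a median of -0.31. The count depended on the endothelial limit. Without that limit 8 of 14 genes were lower and 6 higher, where 48.6% of all measured genes were higher. Over the alternative settings the list median ran from -0.47 to -0.04, Cd74 from -0.62 to -0.15 and H2-Aa from -0.53 to -0.08. The costimulatory receptor Cd40 had 0 UMIs in control and 20 UMIs in 12 cirrhosis members, which is at least 1.49 higher on the log2 scale against a floor of 3 counts per library. Cd80 had 0 and 2 UMIs. Cd86 had 13 and 12 UMIs.

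The MHC class I pathway had a median of -0.22 over 14 measured genes and -0.04 without members over the limit. B2m was at 1752 and 1785 CPM.

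The C-type lectins Cd209d and Cd209a were lower in cirrhosis members. Cd209d, a mouse homologue of DC-SIGN, had 0 UMIs in all B, T and Kupffer barcodes of both libraries. In members it was at 505 CPM in control and 140.0 CPM in cirrhosis. Members ranged from 0 to 2234 CPM with a median of 439 in control, and from 0 to 1141 CPM with a median of 94.8 in cirrhosis. The log2 ratio was -1.85 (-2.14 to -1.56), and -1.22 without members over the limit. Thinned, 50.1% and 25.2% of members held it. Cd209a was at 312 and 126 CPM, a ratio of -1.31 (-1.64 to -0.98), and -0.73 without them. The Cd209 genes form a family, and whether reads were split between them was not tested. Flt3, the receptor whose ligand supports dendritic cell development, was at 173 and 94.7 CPM, a ratio of -0.87 (-1.28 to -0.45), and -0.56 without them.

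CD8 and CD4 transcripts were higher in the cirrhosis members. Cd8a, which some mouse pDCs express, had 4 UMIs in 3 of 36 control members (8.33%) and 133 UMIs in 30 of 64 cirrhosis members (46.9%). That is 7.95 and 111 CPM, a log2 ratio of 3.81 (2.42 to 5.71), and 3.81 without members over the limit. Thinned to 2000 UMIs, 1.71% and 18.5% of members held Cd8a. In B cell barcodes (median 4629 and 4007 UMIs) 0% and 0.763% held it, and in Kupffer barcodes 0.503% and 0.567%. The T cell receptor complex genes Cd3d, Cd3e and Cd3g had 0 UMIs in control and 24, 23 and 25 UMIs in 4 cirrhosis members. Of the 30 members with Cd8a, 29 had no Cd3 UMI, and without the Cd3-bearing members Cd8a was at 123 CPM. T cell barcodes had 140 and 186 CPM.

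Cd8b1 was at 163 CPM in control and 339 CPM in cirrhosis, in 15 and 42 members, with a log2 ratio of 1.06 (0.71 to 1.42) and 1.22 without members over the limit. Cd4 was at 59.6 and 117 CPM, in 14 and 45 members, with a ratio of 0.97 (0.39 to 1.59) and 1.06 without them. B and Kupffer barcodes had at most 3.85 CPM of these genes. Cd8a and Cd8b1 together were found in 2 control and 18 cirrhosis members, and 12 and 5 members had none of the 3 transcripts.

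**Figure D4:**
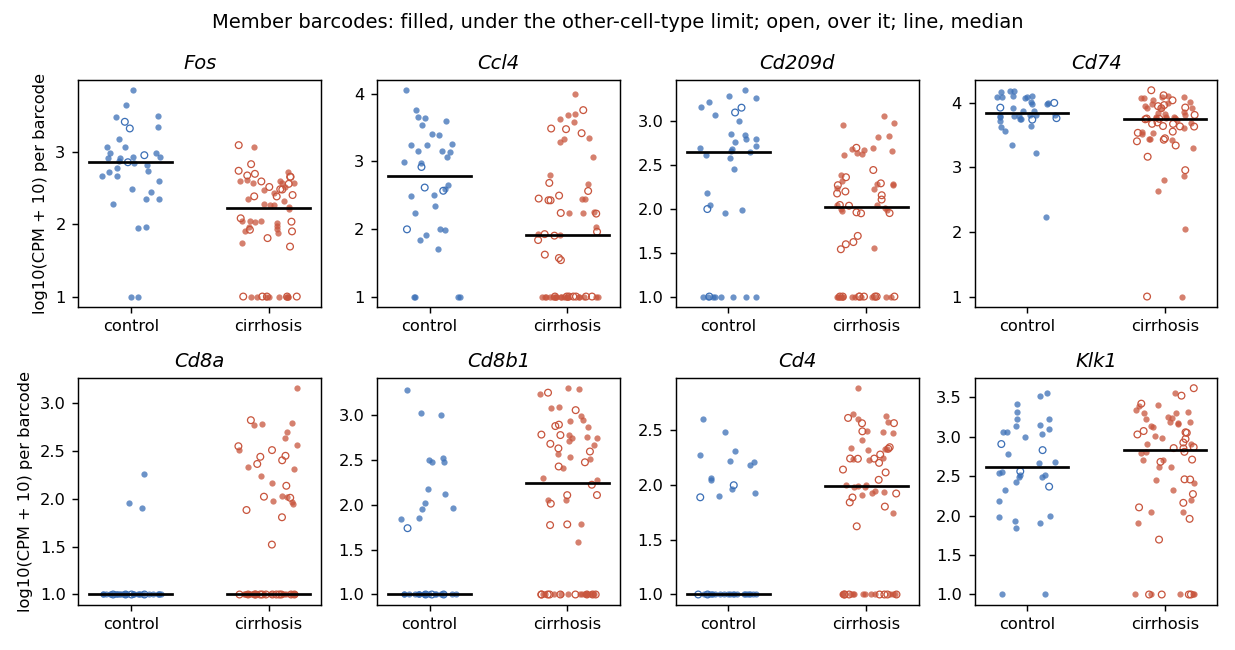
log10(CPM + 10) of 8 genes in each member barcode of the control (blue) and cirrhosis (red) library, each panel with its own y axis; filled points are members under and open points members over the other-cell limit, and lines are medians. Fos, Ccl4 and Cd209d have lower medians in cirrhosis, Cd8a, Cd8b1 and Cd4 are detected in more cirrhosis members, and every panel overlaps.

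Chemokine transcripts were carried unevenly. Ccl4, a chemokine that pDCs release, was at 1526 CPM in control and 683 CPM in cirrhosis, with a UMI in 32 of 36 and 38 of 64 members. The ratio was -1.16 (-1.30 to -1.01), and -0.95 without members over the limit, and the top 3 members held 45.4% and 36.4% of its UMIs. The highest level, 11272 CPM, was in the control member with the fewest marker UMIs, and without that member and its cirrhosis counterpart the ratio was -0.75, under 2-fold. Thinned, 61.5% and 32.4% of members held it, beside 14.8% and 12.9% of Kupffer barcodes. Ccl3 and Ccl5 each rested on 1 member, which held 165 of 220 control UMIs of Ccl3 and 215 of 229 cirrhosis UMIs of Ccl5. Tnf had 3 UMIs in 3 control members and 60 UMIs in 17 cirrhosis members, a ratio of 3.08 (1.46 to 5.39), and 3.75 without members over the limit. Of the 60, 24 were in 1 member, and without it the ratio was 2.36.

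Homing receptors were mostly within 2-fold. Ccr2, a receptor for monocyte chemokines, was at 312 and 335 CPM. The list's median was -0.24 over 17 measured genes and -0.01 without members over the limit. Receptors for growth factors and cytokines had a median of 0.16 over 16 genes. Of these the TGF-beta receptor Tgfbr2 was at 77.5 and 133 CPM, a ratio of 0.78 (0.27 to 1.33), and 0.74 without members over the limit. Glycolysis genes were higher in 11 of 15 cases, beside 57.4% of all measured genes, with a median of 0.26 against 0.11 over all genes. Without those members the medians were 0.25 and 0.04.

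**Figure D5:**
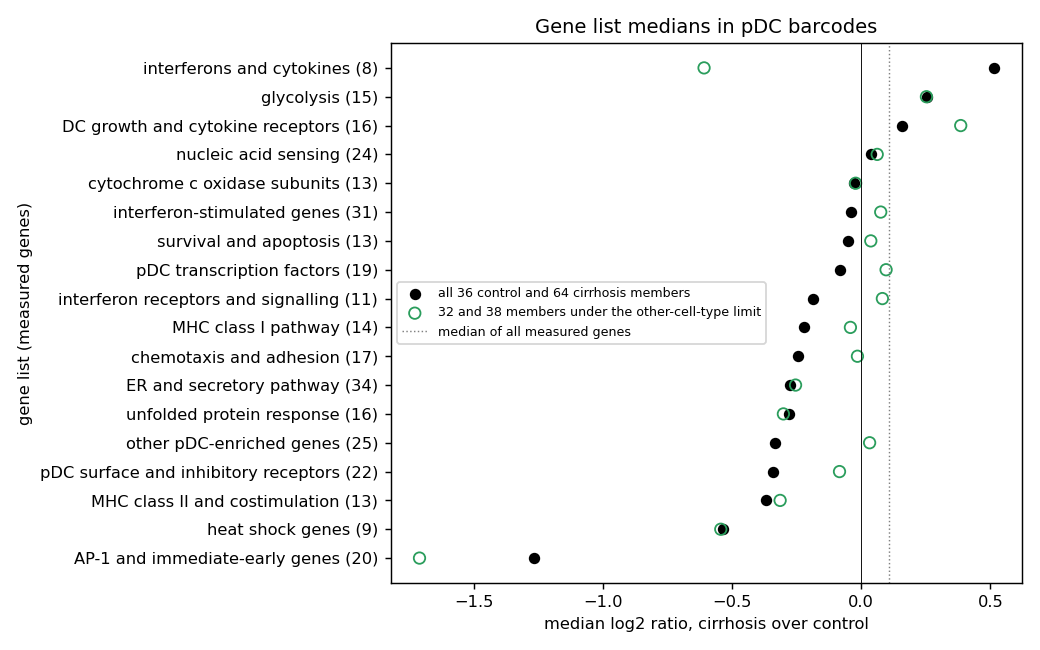
Median log2 ratio of cirrhosis over control (x axis) for each gene list, with its number of measured genes (y axis), from all members (filled) and from members under the other-cell limit (open); the dotted line is the median of all measured genes, 0.11. The AP-1 list lies farthest to the left at -1.27 and -1.71, and the short interferon and cytokine list changes side, from 0.51 to -0.61.

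The 12 highest log2 ratios among well-measured genes included transcripts known from hepatocytes, namely Apoc4, Orm1 and Hpx. Apoc4 was at 1.99 and 80.5 CPM, a ratio of 5.34 (2.83 to 10.66). Without members over the limit control had 0 UMIs, and the ratio against the floor was 1.83, with a lower 95% limit of 1.33. The others were Ly6c1, Fscn1, Pi16, Synpo, Calml4, Inhbb, C3ar1, Itga6 and Cd36. In cirrhosis each of the 12 except C3ar1 was lower in members than in all other passing barcodes. Fscn1 was at 43.6 CPM in cirrhosis members and 120 CPM in those barcodes, and Cd36 at 200 and 924 CPM. The part of other cells' RNA in these ratios was not tested. C3ar1, the complement C3a receptor, had 1 and 43 UMIs, and without members over the limit it had 0 and 1, both under the floor of 3 counts. The other 11 had ratios over 0 without them, with at most 5 control UMIs each. The intervals of Orm1 (1.72, -1.62 to 7.34), Hpx (1.83, -0.03 to 4.29) and Inhbb (2.53, -0.43 to 8.02) then included 0. For Pi16 1 cirrhosis member then held 14 of 17 UMIs, and the ratio was 1.37 (-2.27 to 7.08) without it. Fscn1, the actin bundler of maturing dendritic cells, had 1 UMI in control and 52 UMIs in 20 cirrhosis members, a ratio of 4.46 (1.91 to 9.79). Without members over the limit the ratio was 4.30, where 1 member held 16 of 24 UMIs, and 2.82 (-0.08 to 8.29) without that member too. Ly6c1 had 2 and 143 UMIs, a ratio of 4.92 (3.04 to 7.97), and 4.79 without members over the limit, where 1 member held 42 of 67 UMIs and the ratio was 3.42 without it. The 12 lowest were Fos, Gem, Gm26532, Foxr1, Junb, Cd209d, Fosb, Gria3, Prkar2b, Nfatc2, Siah2 and A530032D15Rik.

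Transcripts of hepatocytes, Kupffer cells and endothelium were higher in the cirrhosis members as whole lists. All 11 hepatocyte genes were at least 2-fold higher, beside 15.7% of all measured genes, with a median of 2.71, and Alb was at 153 and 723 CPM. Alb was also higher in cirrhosis in B cells (80.0 and 1794 CPM), T cells (178 and 1295 CPM) and Kupffer cells (566 and 1229 CPM). All 12 endothelial genes were higher, with a median of 1.17, and 7 of 7 measured Kupffer genes, with a median of 1.79, beside 57.4% of all measured genes. The endothelial list includes Stab1, Stab2, Clec4g and Dnase1l3, whose share the rule itself capped. Without members over the limit the hepatocyte, endothelial and Kupffer medians were 1.11, 0.33 and 3.04, beside 0.04 over all measured genes. The limit was set on these same lists, so these medians are not independent of it. The Kupffer median then rested on 6 genes with few control UMIs, with 12 of C1qa, 8 of C1qb and 5 of C1qc.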

How the data were processed

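The authors deposited 1 filtered droplet matrix of UMI counts per library, made with Cell Ranger on mm10, per the submitters' processing notes; the version is not given in the sources used here. The deposited counts are unnormalised, and 3 reporter sequences are among the genes. From them, barcodes were filtered and chosen by the rule given above, UMIs were summed over members in each library, and CPM, log2 ratios and exact conditional 95% intervals were computed with Python 3.11.15, numpy 2.4.6 and scipy 1.17.1. A gene with 0 UMIs in 1 library was set to a floor of 3 counts, and its ratio is a bound set by that floor, before counting error. Genes were measured from 10 UMIs over both sums and called at 2-fold. With 1 library per group no test was run. Named genes were list genes, the 12 highest and 12 lowest ratios among genes with at least 30 UMIs in at least 10 barcodes and no barcode holding more than 1/3 of the higher library's UMIs, the 15 highest over all other barcodes and the 8 highest over B, T and Kupffer cells. The scripts were tested on simulated data. Members and gene lists were chosen with earlier results of these data known. UMIs are molecules, and 3′ counts do not compare levels between genes. Of 31057 symbols, 30464 were found in GENCODE M21 on GRCm38. Strand use in counting is not given, so overlapping genes cannot be told apart.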

Additional observations from a re-analysis of the deposited data

How the results depend on the processing

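No paired analysis was possible because each group had 1 library. Without the endothelial limit, the share of members was 1.18% in control and 1.28% in cirrhosis, 741 genes were at least 2-fold higher in place of 1605, the AP-1 list median was -1.66, and that of the endothelial list was -0.58. The cause was not tested. With an endothelial limit of 0.1%, 35 of 5168 control and 48 of 7662 cirrhosis barcodes (0.626%) were members. The share was then higher in control, the reverse of the main order, and the AP-1 median was -1.61. Leaving out members over the other-cell limit gave shares of 0.619% in control and 0.496% in cirrhosis, again higher in control. It also gave 778 genes at least 2-fold higher, an AP-1 median of -1.71 and a platelet median of -0.058. Thinning each member to 2000 UMIs left fewer measured genes, 3313, of which 195 were at least 2-fold higher and 39 lower, with an AP-1 median of -0.95 and a Cd40 ratio of -1.41, where both thinned sums were at or under the floor of 3 counts. Measuring from 20 UMIs left 197 genes at least 2-fold lower in place of 375, since fewer genes were tested. The other 115 of 128 alternative values of shares, counts and the main list medians moved less than counting error or 1.5 times. Of 44 named genes, 21 moved beyond their counting interval without members over the limit and 31 without the endothelial limit. Without the member of each library with the fewest marker UMIs, 3 of the 44 moved, namely Fos, Fosb and Ccl4. This alternative, those without 1 member that held most of a gene's UMIs, and those for lists beyond the planned ones were chosen after seeing the data. Depth limits genes under 10 UMIs over both sums, which were not compared as lists.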

Other observations

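Other myeloid transcripts differed between the libraries. All 8 genes of the list of transitional dendritic cell and myeloid genes were higher in cirrhosis members, beside 57.4% of all measured genes. At least 2-fold higher were 6 of them, beside 15.7%, and the median was 1.22. Without members over the other-cell limit 6 of 6 still measured were higher, beside 52.6% of all measured genes, with a median of 1.30. Lyz2, encoding lysozyme, was at 185 CPM in control and 1109 CPM in cirrhosis, a log2 ratio of 2.59 (2.28 to 2.91), and 3.41 without members over the limit. In cirrhosis 1 member held 441 of its 1323 UMIs, and among members under the limit 1 held 94 of 246, without which the ratios were 2.04 and 2.77. In control 1 held 42 of 93, without which the ratio was 3.42. Lyz2 had a UMI in 12 of 36 and 37 of 64 members, of which 8 and 28 also held C1qa, a Kupffer cell gene. Cx3cr1 had 0 UMIs in control and 47 UMIs in 11 cirrhosis members. The part of Kupffer cell RNA in these values was not tested.

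Ly6a, encoding Sca-1 and chosen here after its values were seen, was at 751 CPM in control and 1512 CPM in cirrhosis, a log2 ratio of 1.01 (0.85 to 1.17), and 0.80 without members over the limit. Without the 2 members with the fewest marker UMIs the ratio was 0.96, under 2-fold. Ly6a was found in 75% and 93.8% of members, and after thinning in 50.9% and 79.0%. Rpgrip1 was at 209 and 366 CPM, a ratio of 0.81 (0.50 to 1.13), and 1.07 without members over the limit.

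The members had been sorted as GFP-positive, yet their reporter transcripts were mixed. eGFP transcripts had a UMI in 21 of 36 control and 40 of 64 cirrhosis members, with a median of 1 UMI in each, against 97.6% and 97.8% of barcodes with at least 1% endothelial UMIs, where the median was 13. tdTomato, which Cre excision removes, had a UMI in 25 of 36 and 42 of 64 members, against 0.504% and 0.552% of those endothelial barcodes. In 8 control and 13 cirrhosis members tdTomato was found without eGFP. B, T and Kupffer cell barcodes were mixed as well. Of T cell barcodes, 71 of 187 in control and 62 of 190 in cirrhosis held eGFP, and 76 and 64 held tdTomato. There tdTomato was found without eGFP in 45 and 39. The same held for 13 of 58 and 22 of 131 B cell barcodes, and for 24 of 199 and 32 of 353 Kupffer barcodes. Only 3 control and 19 cirrhosis members had 10 or more eGFP UMIs, and they held 133 of 174 and 673 of 717 eGFP UMIs. Of the 19, 14 were over the other-cell limit.

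Cdh5 itself, whose promoter drives Cre, had a UMI in 88.9% of control and 95.3% of cirrhosis members. After thinning these shares were 32.4% and 39.5%, beside 5.61% and 6.39% of B cell, 8.0% and 11.6% of T cell, and 54.6% and 29.9% of Kupffer barcodes. Its level was 230 and 326 CPM in members, and 206 and 271 CPM without those over the limit.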
